A study of Homo sapiens with 5 samples.

Results

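The genes described here write, copy and erase 5-methylcytosine, the methyl mark on CpG sites of DNA. They were DNMT1, DNMT3A, DNMT3B, TET1, TET2, TET3 and UHRF1, and every probe whose platform gene symbol was one of these names was used. This gave 15 of the 30105 probes with 1 gene symbol, for 6 of the 7 genes. TET3 had no probe under its symbol in the annotation used here and was not analysed here. RNA came from H1, an established human embryonic stem cell line, grown on Matrigel in the defined medium E8. The 5 arrays, 1 per condition, were Illumina expression BeadChips. Of the 4 arrays of day 2, 1 held cells in E8 without additions (called E8), 1 held cells given 16 mM added pyruvate (pyruvate), 1 held cells given BMP4 (BMP4) and 1 held cells given both, with pyruvate again at 16 mM (both agents). The last array held cells given both agents, at the same added pyruvate, until day 6. BMP4 is a growth factor that the study used to start mesoderm differentiation, and its dose is not given in the sources used here. No day 6 array of E8, pyruvate or BMP4 alone was analysed here, so against E8 the effects of culture time, BMP4 and pyruvate cannot be told apart. With 1 array per condition no difference below has a replicate check or a p-value, and the number of arrays limits the precision.

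DNMT3A and DNMT3B place new methyl marks, and DNMT1 copies existing marks to the daughter strand after replication, where UHRF1 binds the half-copied site and brings DNMT1 to it. TET enzymes oxidise the mark with 2-oxoglutarate, a metabolite of the tricarboxylic acid cycle, as a co-substrate, and base excision repair can then restore plain cytosine. Human embryonic stem cells are known for high DNMT3B and TET1 transcripts, and DNMT3B is widely used as a marker of the pluripotent state.

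CpG sites, where these enzymes act, can be seen before start sites of their own genes, though the letters do not show whether a site is methylated. The 250 bases before a RefSeq start site (GRCh38.p14) are shown, 5′ to 3′ on the gene's strand, with every CpG in capitals. TET1 (chr10:68560087-68560336, plus strand) is shown because it was lower at day 6, and DNMT1 (chr19:10194954-10195203, minus strand) and UHRF1 (chr19:4909251-4909500, plus strand, 1 of its 3 windows) as the maintenance pair.
TET1: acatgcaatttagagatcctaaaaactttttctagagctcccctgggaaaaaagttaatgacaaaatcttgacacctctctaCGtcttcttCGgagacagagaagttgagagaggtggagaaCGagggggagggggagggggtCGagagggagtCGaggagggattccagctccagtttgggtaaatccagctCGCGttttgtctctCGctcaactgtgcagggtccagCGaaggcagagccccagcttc
DNMT1: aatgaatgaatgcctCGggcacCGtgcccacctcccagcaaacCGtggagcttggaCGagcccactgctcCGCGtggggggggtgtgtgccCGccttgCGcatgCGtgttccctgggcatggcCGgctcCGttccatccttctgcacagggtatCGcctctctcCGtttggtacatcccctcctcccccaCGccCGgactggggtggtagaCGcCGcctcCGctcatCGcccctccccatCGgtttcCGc
UHRF1: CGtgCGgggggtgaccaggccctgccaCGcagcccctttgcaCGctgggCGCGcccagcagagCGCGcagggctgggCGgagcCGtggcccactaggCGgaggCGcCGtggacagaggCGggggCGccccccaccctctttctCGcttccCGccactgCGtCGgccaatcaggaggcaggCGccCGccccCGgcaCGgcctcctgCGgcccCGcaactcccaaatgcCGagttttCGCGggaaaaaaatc

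The TET1 window shown held 9 CpG, the DNMT1 window 21 and the UHRF1 window 28, where the median of 35116 windows of this length was 11. Windows not shown held 4 and 11 CpG for TET1, and 32 and 41 for UHRF1. An E2F-type motif, the letters of sites bound by factors that drive S phase genes, was searched on both strands as TTTCCCGC, TTTCGCGC, TTTGCCGC or TTTGGCGC. It was present in 2.79% of all windows and in 2 of the 18 windows of the 7 genes, both of UHRF1, and no match overlapped another. In the window shown it starts 14 bases before the start site, as gcgggaaa. A match describes letters only. The UHRF1 window shown belongs to a start site 6421 bases inside the RefSeq gene start. The single DNMT3B window of the table, 17467 bases inside that gene, held 3 CpG and is not shown. Methylation itself was not measured.

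Over the series, the arrays detected 35.2% to 40.1% of 47296 probes, at a detection p under 0.01. The labelled cell type was checked against 9 pluripotency markers with a probe, including POU5F1, NANOG and SOX2, which were all detected on each of the 4 arrays of day 2 and in 6 of 9 cases at day 6. Early mesoderm markers were detected in 1 of 10 cases in E8, 0 with pyruvate, 5 with BMP4, 7 with both agents at day 2 and 9 at day 6. Signals are log2 of the background-corrected, quantile-normalized intensity, and a difference of 1 or more (2-fold) with detection on the brighter array counted as higher or lower. That rule sets a size and is no test. Of the 15 probes, 12 were detected on at least 1 array and 8 on all 5. The single probe of TET2, 1 of 3 probes of DNMT3A and 1 of 5 of DNMT3B were detected on no array.

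Across the day 2 arrays few member probes passed the rule. For pyruvate against E8, 0 of 11 detected member probes passed, where 2.47% of 15182 detected named probes did, and for BMP4 against E8 0 of 11 passed, where 5.14% did. With both agents against BMP4, 1 of 12 passed (UHRF1, higher), where 7.47% of all passed. With both agents against pyruvate, 3 of 12 passed (UHRF1 higher, DNMT3B lower by 2 probes), where 12.8% of all passed. The first 3 shares lie near the background, and the calls of the fourth come from 2 genes. Counted once per gene by its brightest probe, 0 of 5 detected members passed in each of these comparisons. The same background per gene, used for the gene lists further on, was 2.37%, 5.2%, 6.79% and 12.2% in that order.

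At day 6 more member probes passed. Against day 2 of both agents, 8 of 12 were lower and 0 higher, where 13.8% of all detected named probes were lower. They were 4 probes of DNMT3B, 2 of TET1, 1 of DNMT3A and 1 of UHRF1, so several measure the same gene and are not independent. Against E8, 8 of 11 were lower and 0 higher, where 12.5% of all were lower, and these were 4 of DNMT3B, 3 of TET1 and 1 of DNMT3A. The median difference over the detected member probes was -1.24 against E8, beside -0.07 over all detected named probes. Both comparisons share the day 6 array. Counted once per gene by its brightest probe, 3 of 5 detected members were lower than in E8 (DNMT3B, TET1 and DNMT3A) and 2 of 5 lower than at day 2 (DNMT3B and DNMT3A). DNMT3A enters both counts by a dim probe that another of its probes, of nearly the same mean signal, contradicts in direction against E8. Over all detected genes 12.3% were lower and 12.5% higher than in E8, and 13% were lower and 13.5% higher than at day 2.

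**Figure D1:**
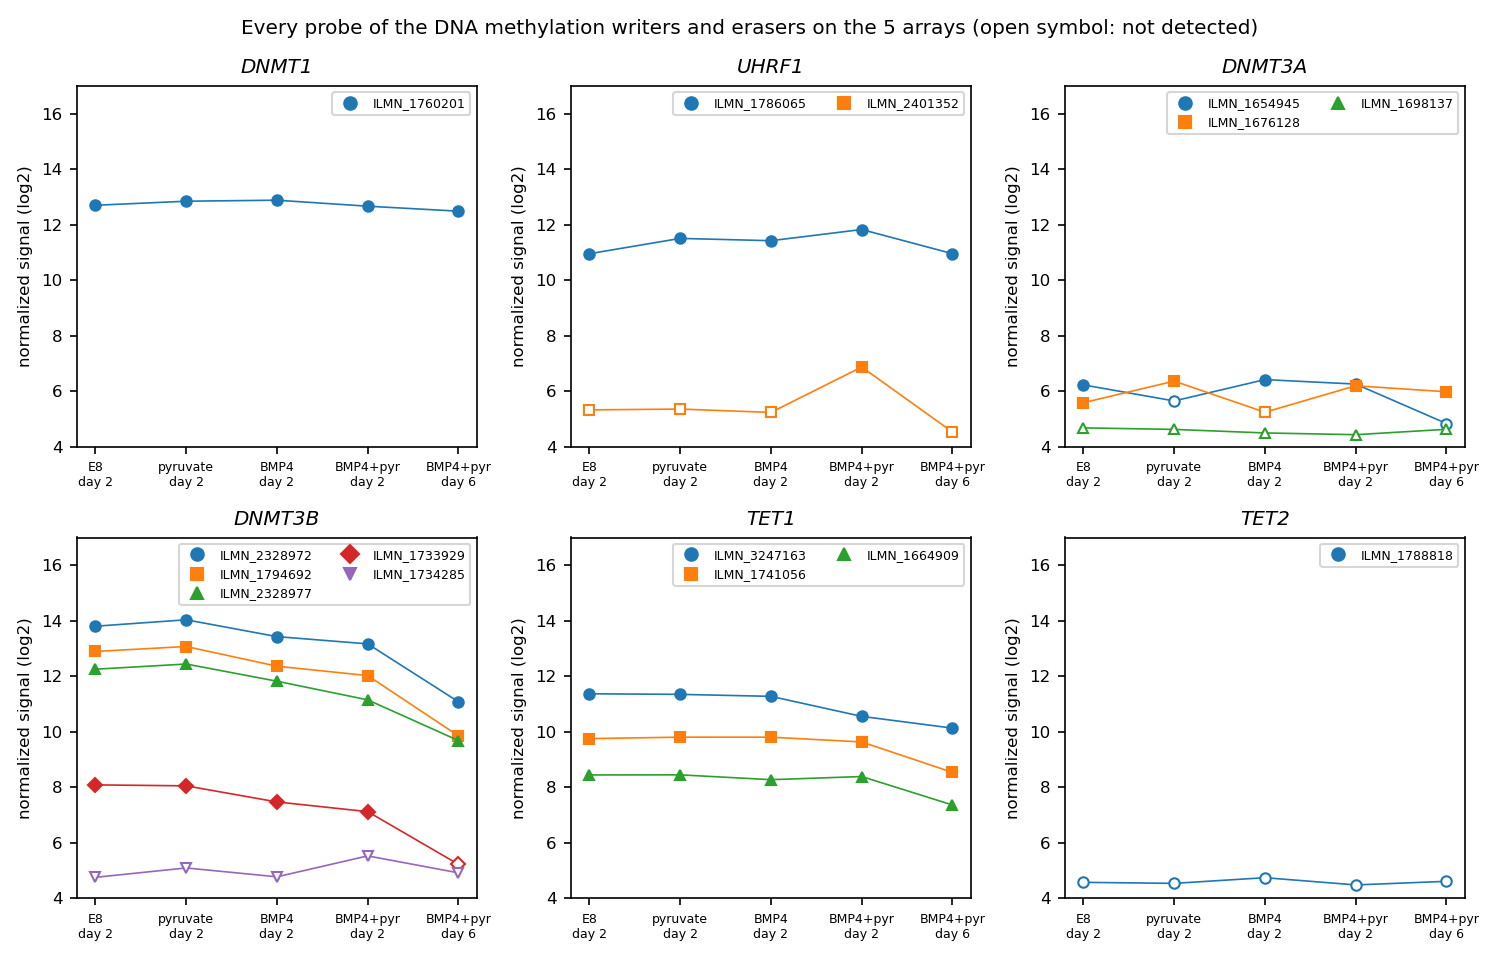
Normalized signal (log2, vertical axis) of every probe of the 6 genes on the 5 arrays (horizontal axis). Each symbol is 1 probe on 1 array, filled where detected at p under 0.01 and open where not, and lines only join the points of a probe. The 4 detected DNMT3B probes and all 3 TET1 probes are lowest at day 6, while DNMT1 stays between 12.49 and 12.89. Of all named probes detected on all 5 arrays, 35.1% are lowest at day 6.

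DNMT3B, a de novo methyltransferase, was the member with the largest differences. By the 3 probes detected on all arrays it was 5.95-fold to 8.23-fold lower at day 6 than in E8. All 4 detected probes were also lower with BMP4 than in E8, and lower again with both agents, but by less than 2-fold at each of these steps. The brightest probe, ILMN_2328972, gave a normalized signal of 13.80 in E8, 14.04 with pyruvate, 13.43 with BMP4, 13.17 with both agents at day 2 and 11.08 at day 6. The day 6 array was thus lowest, and the 4 arrays of day 2 lay within 0.87 of each other.

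Another DNMT3B probe, ILMN_1794692, had signals of 12.89, 13.07, 12.36, 12.02 and 9.85 on the same arrays in the same order. ILMN_2328977 had signals of 12.25, 12.44, 11.82, 11.15 and 9.68. These 3 probes therefore ranked the arrays alike, with pyruvate highest, then E8, BMP4, both agents at day 2, and day 6 lowest. Of 11756 named probes detected on all 5 arrays, 349 (2.97%) had this order. The dimmer ILMN_1733929 had signals of 8.09, 8.05, 7.47 and 7.12 on the arrays of day 2 and was not detected at day 6. It placed E8 and pyruvate within 0.03 of each other and otherwise kept the order. The last probe, ILMN_1734285, annotated to another transcript (NM_175850), was below detection throughout.

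By step, the difference of pyruvate from E8 in DNMT3B was between -0.03 and 0.23 over the 4 detected probes. BMP4 differed from E8 by -0.61 to -0.38, and no probe passed the size rule. Both agents differed from BMP4 alone by -0.67 to -0.26, again with no probe past the rule. Against pyruvate alone, the same array differed by -1.29 to -0.87, and 2 of 4 probes passed. As a scale for these values, pairs of probes for the same gene, over all genes with 2 detected probes, disagreed with an SD of 0.327 for pyruvate against E8, 0.310 for BMP4 against E8 and 0.533 for both agents against BMP4. All 4 DNMT3B probes lay beyond that SD for BMP4 against E8, none for pyruvate against E8, and 1 of 4 for both agents against BMP4. This SD says nothing of the spread between cultures, which was not measured.

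Between day 2 and day 6 of both agents, DNMT3B was 4.25-fold lower by ILMN_2328972, 4.51-fold by ILMN_1794692 and 2.77-fold by ILMN_2328977. ILMN_1733929 was at least 2.39-fold lower there, a call lost without background correction (-0.71), and at least 4.66-fold lower than in E8. Against E8, the other 3 probes were lower by log2 differences of -2.72, -3.04 and -2.57, where the SD between probe pairs was 0.470. In that comparison, 0.905% of detected named probes were as low as ILMN_1794692, the lowest of the 4 detected DNMT3B probes, and 1.12% to 1.62% were as low as the others. Of the same comparison's 358 genes with 3 or more probes detected on both arrays, 10 (2.79%) had all of them lower by at least 1. DNMT3B and TET1 were among these 10. For TET1 this depended on the processing, as its probe ILMN_1664909 differed by only -0.71 without background correction.

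Markers of the starting state and of other lineages also differed between these arrays. Of 9 pluripotency markers, 8 were lower at day 6 than in E8, with a median of -2.99, and their summed background-corrected signal went from 56954 to 10944 units. NANOG, SOX2 and PRDM14 were below detection at day 6. The summed signal of 10 early mesoderm markers went from 142 to 35226 units, of 8 trophoblast and amnion markers from 1911 to 11156, and of 5 endoderm markers from 54.3 to 3311. It went from 279 to 2090 for 6 endothelial and blood markers, and down from 1091 to 728 for 5 neuroectoderm markers. In the mesoderm list HAND1 (13.96) and EOMES (13.07) had the highest log2 signals at day 6. ISL1, at 5.08 in E8 and 12.88 at day 6, is in both the mesoderm and the trophoblast and amnion lists and carried most of the latter's sum. In that list TFAP2C went the other way, from 10.66 to 8.10, and KRT7 and CGA were below detection on all arrays. In these bulk samples, fewer cells that express a gene and less RNA per cell cannot be told apart. The part of these markers in the DNMT3B difference was not tested.

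**Figure D2:**
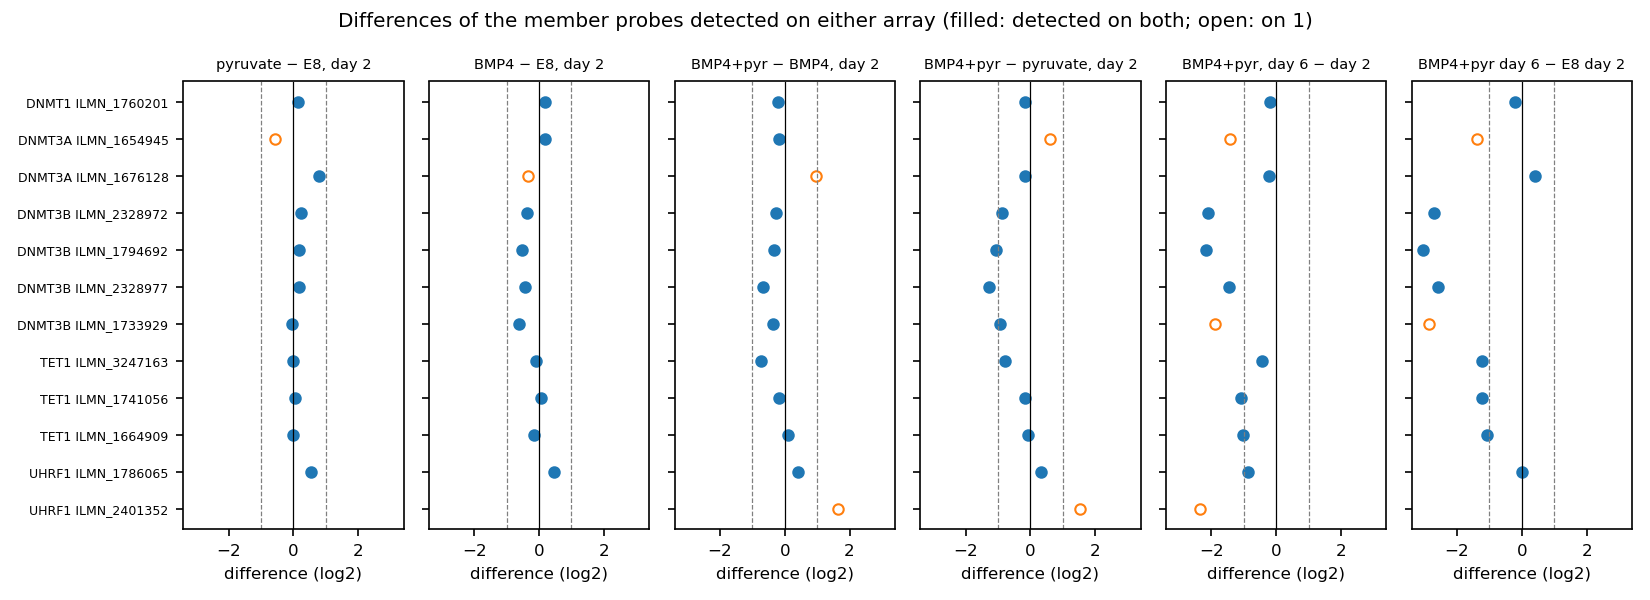
Difference in normalized signal (log2, horizontal axis) of each member probe detected on either array, for the 6 comparisons. Filled points were detected on both arrays, open points on 1, and dashed lines mark the 2-fold rule. In the last panel all 4 detected DNMT3B probes and all 3 TET1 probes lie below -1, while DNMT1 and the brighter UHRF1 probe lie at -0.21 and 0.00.

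TET1, a dioxygenase that oxidises 5-methylcytosine, differed little between E8, pyruvate and BMP4 and was 2.12-fold to 2.36-fold lower at day 6 than in E8 by 3 of 3 probes. The brightest, ILMN_3247163, had signals of 11.37 in E8, 11.35 with pyruvate, 11.28 with BMP4, 10.55 with both agents at day 2 and 10.13 at day 6. ILMN_1741056 had signals of 9.75, 9.81, 9.81, 9.63 and 8.54. ILMN_1664909 had signals of 8.44, 8.45, 8.27, 8.39 and 7.36. All 3 probes were lowest at day 6, as were 4129 (35.1%) of 11756 named probes detected on all 5 arrays. The 3 probes disagreed on the array of both agents at day 2.

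On that array ILMN_3247163 was already 1.65-fold lower than with BMP4 alone (-0.72), while ILMN_1741056 differed by -0.17 and ILMN_1664909 by 0.11. As a result the first probe differed by only -0.42 between day 2 and day 6, and the other 2 by -1.10 and -1.03. The SD over the 3 probes was 0.42 for both agents against BMP4 and 0.08 for day 6 against E8. The platform annotation gives all 3 probes the same transcript (NM_030625). Without background correction the 2 dimmer probes no longer passed the rule against E8, with -0.99 and -0.71, while the brightest kept its call. Against day 2, both dimmer probes also missed the rule with scaling in place of quantile normalization (-0.97 and -0.99).

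TET2 and TET3 complete the eraser family. TET2, like TET1 an oxidase but without a CXXC domain of its own, had signals of 4.58, 4.54, 4.74, 4.48 and 4.61 with no array above detection, so its level was not measurable.

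DNMT1, the maintenance methyltransferase, varied least of the member probes detected on all arrays. Its single probe had signals of 12.70 in E8, 12.85 with pyruvate, 12.89 with BMP4, 12.67 with both agents at day 2 and 12.49 at day 6. The range over the 5 arrays was 0.40, and the largest difference in any of the 6 comparisons was -0.22. Neighbours in its order were apart by 0.18 or less, under the SD between probe pairs in every comparison. These values depended on the processing. Over the alternatives described below, both agents differed from BMP4 by as much as -0.57 and from pyruvate by as much as -0.54. Day 6 against day 2 of both agents ranged from -0.19 to 0.08.

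UHRF1, which recruits DNMT1 to newly replicated DNA, was highest with both agents at day 2 by both of its probes. The brighter probe, ILMN_1786065, had signals of 10.96 in E8, 11.51 with pyruvate, 11.43 with BMP4, 11.83 with both agents at day 2 and 10.96 at day 6. E8 and day 6 were thus the low arrays, apart by 0.00, and the other 3 lay 0.47 to 0.87 above E8. The pyruvate difference was 0.55 in E8 and 0.40 in BMP4, and 5.99% of detected named probes were as high as the first. No difference of this probe passed the rule, and the nearest was 1.83-fold lower at day 6 than at day 2 (-0.87). With arrays scaled to their 75th percentile, both agents differed from pyruvate by only 0.01 and from BMP4 by 0.16, while pyruvate alone differed from E8 by 0.68.

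The dimmer UHRF1 probe, ILMN_2401352, annotated to NM_013282, had signals of 5.33, 5.36 and 5.24 in E8, pyruvate and BMP4, 6.88 with both agents at day 2 and 4.53 at day 6. It was detected on that 1 array only, and was there at least 1.99-fold higher than with BMP4, at least 1.96-fold higher than with pyruvate and at least 2.01-fold higher than at day 6. All 3 calls were lost without background correction, where the difference from BMP4 was 0.58. By the brighter probe, both agents differed from BMP4 by 0.40.

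DNMT3A, the other de novo methyltransferase, was near the detection limit and its probes disagreed. ILMN_1654945, annotated to NM_153759, the transcript of the shorter DNMT3A2 isoform, had signals of 6.23 in E8, 5.65 with pyruvate, 6.42 with BMP4, 6.26 with both agents at day 2 and 4.84 at day 6. It was detected in E8, BMP4 and both agents at day 2 only. At day 6 it was at least 1.29-fold lower than in E8 and at least 1.31-fold lower than at day 2. These calls were lost without background correction (-0.45 and -0.46) and with a larger offset (-0.80 and -0.82).

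ILMN_1676128, annotated to NM_175630, had signals of 5.59, 6.37, 5.25, 6.20 and 5.98 and was detected everywhere but with BMP4 alone. It was higher with pyruvate by 0.78 in E8 and, against an undetected value, at least 1.25-fold higher in BMP4. At day 6 it differed from E8 by 0.39, in the direction opposite to the first probe. No direction can be given for DNMT3A as a gene.

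The 4 arrays of day 2 cross BMP4 with pyruvate, so the pyruvate difference can be set side by side without and with BMP4. For DNMT3B it was 0.23 without and -0.26 with BMP4 by ILMN_2328972, and 0.19 and -0.67 by ILMN_2328977. For TET1 it was -0.02 and -0.72 by ILMN_3247163, 0.05 and -0.17 by ILMN_1741056, and 0.00 and 0.11 by ILMN_1664909. For DNMT1 it was 0.15 and -0.22. The departure from adding both effects was between -0.86 and -0.32 over the 4 DNMT3B probes and between -0.70 and 0.11 over the 3 TET1 probes. By the main processing, no member probe detected on all 4 arrays reached 1 in either direction. Of 12471 named probes detected on these arrays, 4.26% reached -1 or below. The departure is given for the main processing only. Over the processing alternatives described below, the pyruvate difference of ILMN_2328977 reached 0.32 without BMP4 and -0.89 with it. For ILMN_2328972 these were 0.40 and -0.66, so a member probe may pass -1 under another processing. Probe pairs disagreed more in comparisons that hold the array of both agents (SD of 0.533 and 0.576) than between the other arrays of day 2 (0.327 and 0.310).

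Few partners of the methyltransferases passed the rule at day 2, and some were lower at day 6. DNMT3L, the inactive co-factor of the de novo enzymes, was below detection on all 5 arrays by its brighter probe, so no difference is given for it. Of 14 detected co-factors and recruiters, 0 passed for pyruvate or for BMP4 against E8. For both agents against BMP4, 0 of 13 passed. With both agents against pyruvate, where 12.2% of all detected genes passed, 0 were higher and 2 lower. They were DPPA3, which keeps UHRF1 off chromatin, at least 2.43-fold, and HELLS, a chromatin remodeller needed for DNA methylation, 2.34-fold. At day 6 against E8, 3 were lower and 0 higher, with a median of -0.55. HELLS was 2.31-fold lower, TRIM28, a co-repressor that silences repeats, 2.02-fold lower, and USP7, a deubiquitinase that binds DNMT1 and UHRF1, 2.00-fold lower, the last 2 at the edge of the rule. USP7 and TRIM28 were highest with both agents at day 2, at 10.74 and 11.90, so that they were 3.27-fold and 3.13-fold lower at day 6 than on that array.

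Some replication genes were lower at day 6, where DNMT1 and the brighter UHRF1 probe differed from E8 by only -0.21 and 0.00. Of 24 detected genes of DNA replication and S phase, 8 were lower and 0 higher at day 6 than in E8 (median -0.78), and 11 were lower and 0 higher than at day 2 (median -0.97). Against day 2, the brighter UHRF1 probe differed by -0.87 and DNMT1 by -0.18. MCM5, a subunit of the replicative helicase, was 5.66-fold lower than at day 2, RRM2, which makes deoxynucleotides, 4.20-fold and MCM4 3.49-fold. MCM5 (2.26-fold) and RRM2 (2.46-fold) were also the 2 genes of the list that passed the rule as higher with both agents than with BMP4. Against BMP4, MCM4 went from 11.06 to 11.35 there, and MCM6 the other way, from 13.06 to 12.50. UHRF1 was highest on the same array, and a link between it and these genes was not tested.

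On the eraser side, the base excision list held calls in both directions, the GADD45 stress genes among them. Of 14 detected genes of this list, 2 were higher and 1 lower at day 6 than in E8, with a median of -0.08. GADD45A, which has been linked to DNA demethylation, was 5.87-fold higher, GADD45B 2.09-fold higher, and PARP1, which binds DNA breaks, 2.44-fold lower. GADD45B was 3.18-fold higher and GADD45G 4.42-fold lower with BMP4 at day 2. At day 6 the GADD45G signal was near that in E8 (8.61 and 8.42). For pyruvate against E8, XRCC1 was 2.13-fold lower, the single call among the 14 genes, where 2.37% of all detected genes passed. Of TET partners, 2 of 9 were lower at day 6 than in E8. They were PRDM14, at least 7.16-fold, and NANOG, at least 29.8-fold, both of which are also in the pluripotency list above. SMAD3, a mediator of TGF-beta signals, was 2.33-fold higher at day 6 than at day 2.

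Metabolic genes near these enzymes were described in 2 lists. Of 15 detected genes for 2-oxoglutarate, succinate and fumarate, the substrate and inhibitors of TET enzymes, 0 passed in 5 of the 6 comparisons. In the remaining one, both agents against pyruvate, IDH2 was 2.06-fold higher and SDHD 2.25-fold lower. At day 6 against E8 their median was -0.36. Of 14 detected genes of the methyl donor cycle, 0 passed for pyruvate against E8, BMP4 against E8, or both agents against BMP4. At day 6, 1 was higher and 3 lower than in E8, and 1 was higher and 4 lower than at day 2. Against E8, MTR, which remakes methionine, was 2.61-fold higher, and MTHFD1 (2.50-fold), AHCY (2.21-fold) and SLC19A1 (at least 1.62-fold) were lower. SHMT1, which feeds the folate cycle from serine, was 2.62-fold higher with both agents than with pyruvate and 3.51-fold lower at day 6 than at day 2. MAT2B, a regulatory subunit of methionine adenosyltransferase, was 2.18-fold lower with both agents than with pyruvate.

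Readers of methyl-CpG, such as MBD2 and ZBTB33, passed in 0 of 5 cases at day 6 against either array, and MBD1, which was 2.49-fold higher with both agents than with BMP4, was the single call of that list. Of 14 germline genes whose promoters methylation is known to silence, 12 were detected on no array. TDRD1, a protein of the germline's transposon defence, was detected on all 5 and was 2.92-fold higher with both agents than with pyruvate. DAZL, an RNA-binding protein of germ cells, was detected in E8 alone, at 6.45, and was below detection on the other arrays.

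**Figure D3:**
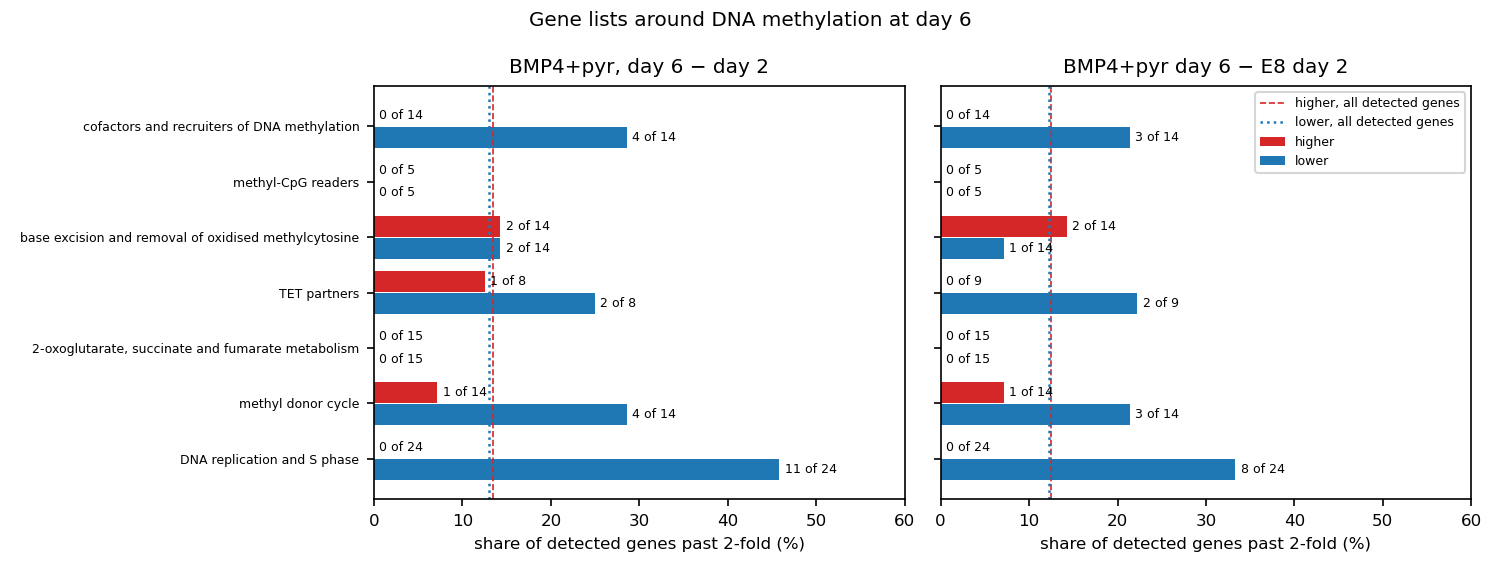
Share of detected genes (%, horizontal axis) that were at least 2-fold higher (red) or lower (blue) at day 6 of both agents, against day 2 (left) and against E8 (right), for the lists with 5 or more detected genes. Dashed and dotted lines give the share over all detected genes, and the text on each bar gives the count. Members and cell type markers are not drawn. Among the lists drawn, replication genes had the longest blue bars, 11 of 24 and 8 of 24.

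The genes whose profiles lay nearest to the brightest DNMT3B probe were found by the root mean square distance of mean-centred signals over the 5 arrays, among 3159 genes detected on all arrays with a range of 1 or more. They were ITPR3, a calcium channel of the endoplasmic reticulum (distance 0.11), THY1, a surface protein of pluripotent cells (0.12), the non-coding RNA DANCR (0.13), RNF182 (0.15) and PARM1 (0.16). For TET1 they were ST6GAL1, a sialyltransferase (0.08), MAGEE1, RMI1, PNMA1 and PLEKHH1 (0.09 to 0.10). For the dim DNMT3A probe, which was undetected on 2 of the arrays, they were RAB25, TIMP2, SIRPA, CARHSP1 and DIAPH2 (0.10 to 0.14). With 5 arrays many genes share a profile, and a small distance is a description.

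**Figure D4:**
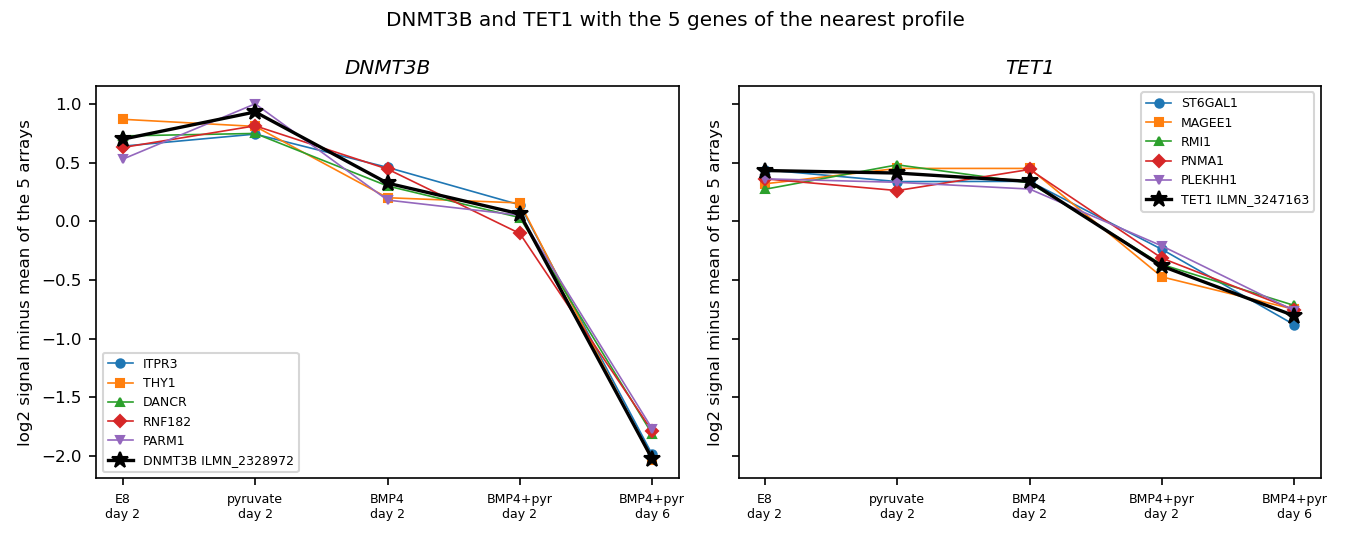
Signal minus its mean over the 5 arrays (log2, vertical axis) on each array (horizontal axis) for the brightest DNMT3B probe and the brightest TET1 probe (black stars) and the 5 genes of the nearest profile (coloured symbols). DNMT3B and its neighbours drop mainly between day 2 and day 6, and TET1 by ILMN_3247163 and its neighbours are already lower with both agents at day 2.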

How the data were processed

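Labels put 5 arrays in 5 groups. The main deposited file gives raw intensity values for each probe, which the authors' name for it calls non-normalized, each with a deposited detection p-value. The authors' deposited log2 values were used as an alternative only: their scale was read from the values, their ranks follow each array's intensities (rank correlation 1), all 5 column medians are 5.58, genes are not centred, and their background treatment and normalization are unknown. The software behind both is not given in the sources used here. Intensities were corrected with limma 3.58.1 neqc in R 4.3.3 (normexp from detection p-values, offset 16, quantile normalization, log2). The offset shrinks differences of dim probes, and quantile normalization hides changes in total RNA. A "fold" is 2 to the power of a difference. Where the dimmer array was undetected, "at least" sets the bright signal against the higher of the dim signal and that array's lowest detected signal. Probes were named by the platform annotation (30105 with 1 symbol, 8 with several, 17183 with none), and 30066 matched RefSeq by Entrez identifier. A gene in a list is read by its probe of highest mean. Promoter sequences are RefSeq's (GRCh38.p14), and all 7 genes matched. Probe sequences were not used here, so what each probe hybridises to was not checked.

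The members and gene lists were chosen with earlier results of these data known. Named genes were all members, DNMT3L, up to 3 members of each list with the largest differences past the size rule, and the 5 nearest profiles. HELLS, XRCC1, PARP1, AHCY, SLC19A1 and MAT2B complete counts of 5 or fewer and were named after their values were seen. MCM6 was also named after its values were seen, as a gene that went the other way. Alternatives changed the background correction, offset, normalization, value table, detection threshold, detection filter, size rule (1.5-fold) and the arrays normalized together.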

Additional observations from a re-analysis of the deposited data

How the results depend on the processing

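No member probe that passed the size rule changed sign under any of the 8 alternatives run. Of these, 1 (normalizing without the array of both agents at day 2) bears on comparisons without that array only. The changed detection threshold, detection filter and size rule keep the same differences and only loosen the rule. They could therefore neither change a sign nor remove a call. All 3 DNMT3B probes detected on every array passed against E8 at day 6 in each alternative that could remove a call. Member probes called moved by over 1.5 times in these cases. Without background correction they were 0 instead of 1 for both agents against BMP4, 3 instead of 8 for day 6 against day 2 and 5 instead of 8 for day 6 against E8. The TET1 probe ILMN_1664909 missed the rule against E8 also with an offset of 50 (-0.95) and in the deposited log2 values (-0.99). With scaling to the 75th percentile, member calls were 5 instead of 3 for both agents against pyruvate, as a further DNMT3B probe (-1.32) and a TET1 probe (-1.04) passed. That scaling moved the median of all detected named probes to -0.15 there and -0.11 against BMP4, and the share of higher calls from 55.2% to 40.2% and from 58.3% to 36.7%. It moved that share from 44.0% to 64.2% for pyruvate and from 50.5% to 66.6% for BMP4 against E8. With a 1.5-fold rule, member calls were 1 for pyruvate and 1 for BMP4 against E8 (0 each at 2-fold), 4 for both agents against BMP4 and 7 against pyruvate.

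Counts over all named probes also moved, given first for pyruvate and BMP4, each set against E8, then for both agents set against BMP4 and against pyruvate, and last for day 6 set against day 2 and against E8. They were 375, 786, 1105, 1913, 4139 and 3894 as reported, and 26, 174, 195, 532, 1698 and 1685 without background correction. An offset of 50 gave 86, 338, 488 and 1054 in the first 4. The deposited log2 values gave 177, 509 and 650 in the first 3. The 1.5-fold rule gave 1942, 2403, 3857, 4979, 7601 and 7295. The share of higher calls for BMP4 against E8 was 64.9% without background correction. No paired analysis was possible because each condition had 1 array and no test was run. Low signal limits DNMT3A, TET2 and the dimmer UHRF1 probe, and the cause of each shift was not tested.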
